A study of Mus musculus with 2 samples.

Results

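Sox genes encode transcription factors that bind DNA through an HMG box and steer cell fate. The 6 genes described here, Sox9, Sox5, Sox6, Sox4, Sox8 and Sox11, were measured in primary chondrocytes of the mouse, once before mechanical loading and once 24 h later. They were chosen by name, and every non-control probe listed under a RefSeq transcript of one of them was taken. All 6 had a probe, out of 20660 genes with a probe named through RefSeq, and together they held 9 probes and 18 spots. The brightest probe stands for its gene, with any further probe given beside it.

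Both samples came from articular chondrocytes of 6-day-old C57BL/6J mice, for which the labels name no genetic change. The cells lay for 48 h in fibronectin-coated silicone chambers and were then stretched by 10% at 0.5 Hz for 30 min. RNA was taken before the stretch in the first group (before loading, 1 array) and 24 h after it in the other (24 h after loading, 1 array). No unstretched culture of the later time point was analysed here, so that an effect of loading cannot be told apart from one of 24 h more in culture. Each time point has 1 array. The differences therefore lack a replicate check, and neither a test nor a p-value is given. The number of arrays limits the precision.

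SOX9, with its close relatives SOX8 and SOX10, belongs to the SoxE group, and it is required for cartilage to form and for chondrocytes to keep their identity. SOX5 and SOX6 belong to the SoxD group with SOX13, have no activation domain of their own, and help SOX9 to activate cartilage matrix genes such as Col2a1 and Acan. SOX4, SOX11 and SOX12 make up the SoxC group, which keeps mesenchymal and neural progenitors alive and is strongly expressed in the developing skeleton. SOX9 also holds back the last, hypertrophic step of chondrocyte life, in which Col10a1 is made.

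The values are intensities after background subtraction by the scanner software, and each log2 ratio is the level 24 h after loading minus that before loading, each level being a log2 intensity relative to the 75th percentile of its own array. That percentile lay at 466.37 before loading and 466.15 at 24 h. Of the 59305 non-control spots, 59.14% on the first array and 57.66% on the second were well above background, and 0 were saturated. A gene is called detected when its brightest probe was well above background on both arrays, which held for 14231 genes and for all 6 Sox genes. The within-array error is the software's own error of both spots on the log2 scale. Its median was 0.20 among detected genes. For bright probes this error was nearly constant, with 0.20403 for Sox9 and 0.204029 for Sox5, so that it is hardly specific to a gene. It holds nothing of the spread between cultures. Intensities of different probes are not comparable with each other, so that genes were compared by the ratio of a probe to itself. Sums over a marker list are given as totals only, and the brightest probe weighs most in them.

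The annotated start regions of the members were read as sequence. RefSeq windows of 300 bases, from 250 before to 50 after a transcription start, were at hand for 5 of the 6 members, and Sox9 was not in that table. The windows of the 3 members with 2 probes each are printed for comparison, because these are the genes whose ratio could be read more than once. The core letters that SOX proteins prefer, ACAAAG and ACAATG on either strand, are set in capitals.
Sox5, GRCm38.p6, chr6:143947057-143947356, reverse strand: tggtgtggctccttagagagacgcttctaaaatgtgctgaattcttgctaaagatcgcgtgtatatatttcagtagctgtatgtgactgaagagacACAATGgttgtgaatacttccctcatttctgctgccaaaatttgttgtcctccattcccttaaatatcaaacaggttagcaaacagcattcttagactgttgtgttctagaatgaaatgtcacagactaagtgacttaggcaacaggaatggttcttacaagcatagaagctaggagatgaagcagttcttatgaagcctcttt
Sox4, GRCm38.p6, chr13:28953650-28953949, reverse strand: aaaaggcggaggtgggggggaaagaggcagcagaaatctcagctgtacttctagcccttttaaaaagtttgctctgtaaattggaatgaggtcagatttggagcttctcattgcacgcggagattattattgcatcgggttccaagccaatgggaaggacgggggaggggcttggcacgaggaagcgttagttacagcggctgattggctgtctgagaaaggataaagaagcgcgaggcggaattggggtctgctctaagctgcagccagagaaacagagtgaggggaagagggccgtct
Sox11, GRCm38.p6, chr12:27342669-27342968, reverse strand: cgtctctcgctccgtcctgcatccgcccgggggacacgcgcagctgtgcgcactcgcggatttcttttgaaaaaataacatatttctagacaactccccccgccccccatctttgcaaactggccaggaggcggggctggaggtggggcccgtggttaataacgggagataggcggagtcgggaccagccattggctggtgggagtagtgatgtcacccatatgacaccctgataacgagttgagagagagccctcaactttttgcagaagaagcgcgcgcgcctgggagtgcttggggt
The Sox5 window held 1 match, at position -154 relative to the start, and those of Sox4, Sox11 and Sox8 held none. For Sox6 the table gave 6 windows, of which 5 held a match. Over all windows of this length, 28.6% held at least 1 match. The share of G and C was 39.7% in the Sox5 window, 52.0% in that of Sox4 and 58.7% in that of Sox11, against a median of 52.7% over all windows. A match is a description of letters, and no binding was measured. Which transcript of a gene starts at a window, and whether these cells use that start, was not checked.

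None of the 6 Sox genes differed by as much as 1.5-fold between the arrays on its brightest probe. Of the 6, 3 had a log2 ratio above 0 (Sox4, Sox9 and Sox8) and 3 below 0 (Sox5, Sox11 and Sox6), and all lay between -0.24 and 0.25. Among the 14231 detected genes, 0.668% were higher and 1.83% lower by more than 2-fold, and 3.65% and 5.84% were past 1.5-fold in the same directions, so that the count of 0 of 6 stands near this background. The median log2 ratio of the 6 was 0.06, and that of all detected genes was -0.01.

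**Figure D1:**
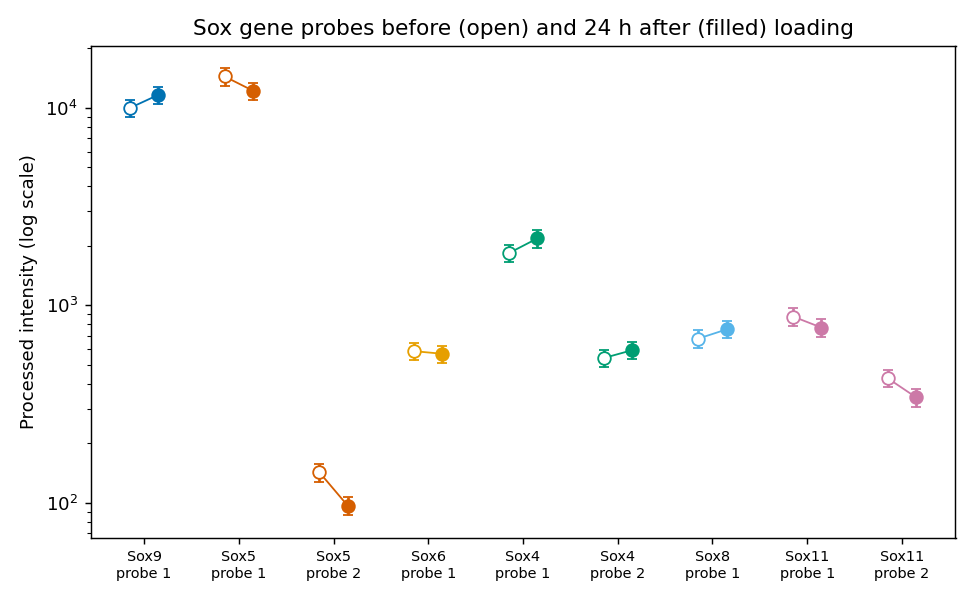
Processed intensity (log axis) of the 9 probes of the 6 Sox genes before loading (open) and 24 h after it (filled), 1 array each, with probe 1 the brightest of its gene. Bars are the software's within-array error of the spot, the mean of 9 spots for Sox9. The lines of Sox9, Sox4 and Sox8 run upwards and those of Sox5, Sox6 and Sox11 downwards, all with small slopes, the steepest being the dim second probe of Sox5.

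Sox9, the master regulator of chondrocytes, was read by a single probe that the array carries in 10 spots. One spot was marked as an outlier at 24 h and left out. Over the other 9 spots the intensity was 10005 ± 907 (SD, n = 9 spots) before loading and 11614 ± 290 (SD, n = 9 spots) at 24 h. Before loading the spots ran from 7885 to 11120 with a median of 10150, and at 24 h from 11242 to 12040 with a median of 11624. All 9 spots were therefore brighter at 24 h than the brightest of them had been before loading. The log2 ratio of Sox9 was 0.22, which is 1.17-fold (within-array error 0.20), with an SD of 0.16 between its spots. Over 264 probes with at least 8 spots, the median of this SD was 0.085, and 81.4% had a smaller one than Sox9. These spots share 1 RNA sample per array, so that their spread is technical.

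The size of the Sox9 ratio depended on 1 spot. The spot with the lowest intensity before loading, 7885, had a log2 ratio of 0.61, while the other 8 lay between 0.10 and 0.28. Without it the mean log2 ratio was 0.17 with an SD of 0.07 over 8 spots. This mean is inside the within-array error, which is that of a single spot and not of a mean of 8. Of the 27 spots printed within 100 µm of it, 4 were more than 2-fold lower at 24 h and 0 more than 2-fold higher. Around each of the other 9 Sox9 spots at most 2 neighbours differed by that much. The part of the neighbouring spots in this value was not tested. With the outlier spot kept, the log2 ratio was 0.21.

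**Figure D2:**
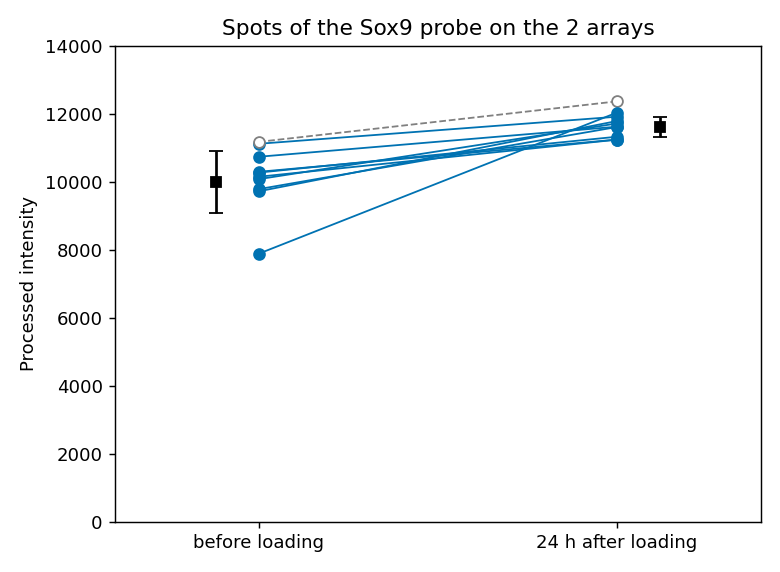
Processed intensity of each spot of the Sox9 probe, joined between the array taken before loading and the array taken 24 h after, with the mean and SD of the 9 spots used as black squares at the sides. The dashed line is the spot marked as an outlier. One spot starts at 7885, well under the rest, and every spot is brighter at 24 h.

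Sox8, the SoxE gene that overlaps with Sox9 in function in several tissues, had an intensity of 678 before loading and 755 afterwards. Its log2 ratio was 0.16 (within-array error 0.20), and its 2 intensities thus differed by less than the error. Sox10, the third SoxE gene and best known from neural crest and glia, was dim, with 150 before loading and 184 at 24 h (log2 ratio 0.30, within-array error 0.21). All 3 SoxE genes had a ratio above 0, beside 47.6% of all detected genes, and this was so in each of the 9 other settings run for them. These were scaling to the median, to the 75th percentile of detected probes or to added spike-in RNA, quantile normalization (both arrays given 1 distribution), loess (removing a trend of the ratio with intensity), normexp (another background correction, with an offset that pulls dim ratios towards 0), the rounded table, the mean over the probes of a gene, and keeping the outlier spots. All of these settings reuse the same 2 arrays, and most moved the median ratio of all detected genes upwards. A kept positive sign is therefore no independent check.

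Sox5, the SoxD partner of Sox9, read 14387 before loading and 12181 at 24 h on its brighter probe. The log2 ratio was -0.24, which is 1.18-fold lower (within-array error 0.20). Its other probe was far dimmer, with 143 before loading and 96.7 at 24 h, and its log2 ratio was -0.56, which is 1.48-fold lower (within-array error 0.21). Both probes were lower at 24 h, but their ratios lay 0.32 apart. The corresponding range had a median of 0.19 over 3635 genes with several detected probes, and 69.4% of those genes had a smaller range than Sox5. The mean over both probes was -0.40.

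Sox6, the other SoxD partner of Sox9, had 586 before loading and 568 at 24 h. The log2 ratio of -0.04 (within-array error 0.20) lay close to 0, and it turned positive with median scaling (0.05), spike-in scaling (0.04) and normexp correction (0.03). Sox13, the remaining SoxD gene, had 1608 before loading and 1296 at 24 h (log2 ratio -0.31, within-array error 0.20). The SoxD genes thus lay below 0 in all 3 cases as reported, but under 3 of the 9 other settings Sox6 did not.

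Sox4, a SoxC gene of mesenchymal progenitors, had 1835 before loading and 2178 at 24 h on its brighter probe, 1.19-fold higher (log2 ratio 0.25, within-array error 0.20). Its dimmer probe had 540 before loading and 592 at 24 h (log2 ratio 0.13, within-array error 0.20). Both probes of Sox4 were higher at 24 h, and only the brighter one passed its error.

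Sox11, the SoxC gene most closely related to Sox4, had 877 before loading and 771 at 24 h on its brighter probe (log2 ratio -0.19, within-array error 0.20). On its dimmer probe it had 427 before loading and 342 at 24 h (log2 ratio -0.32, within-array error 0.21). Both probes of Sox11 were lower at 24 h, so that the 2 SoxC members stood on opposite sides of 0 on all 4 of their probes. Sox12, the remaining SoxC gene, was near the lower limit of detection, with 28.2 before loading and 31.2 at 24 h (log2 ratio 0.14, within-array error 0.34).

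Set against the software's error, Sox4 and Sox9 were higher and Sox5 lower by more than 1 within-array error, which is 2 of 6 and 1 of 6. Over all detected genes 20.1% were higher and 22.7% lower by more than their own error, so that these counts stand near the background and are no result about the Sox genes. The call of Sox5 was lost under 4 of the 9 other settings, median scaling (-0.14), spike-in scaling (-0.15), loess (-0.19) and quantile normalization (-0.20). The call of Sox4 was lost with the mean over its probes (0.19), and that of Sox9 without its spot of the highest ratio (0.17). Calls were gained as well. Sox8 passed its error with median scaling (0.25) and spike-in scaling (0.24), and Sox11 with the mean over its probes (-0.25). In the order of all detected genes by log2 ratio, Sox4 stood at percentile 82.7, Sox9 at 80.5, Sox8 at 74.1, Sox6 at 45.3, Sox11 at 26.1 and Sox5 at 20.5. Between 16.2% (Sox4) and 29.9% (Sox6) of the detected genes had a log2 ratio within 0.1 of the member's, and with 2 arrays the ratio is all there is to a pattern, so that no gene is named for its likeness to a member.

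**Figure D3:**
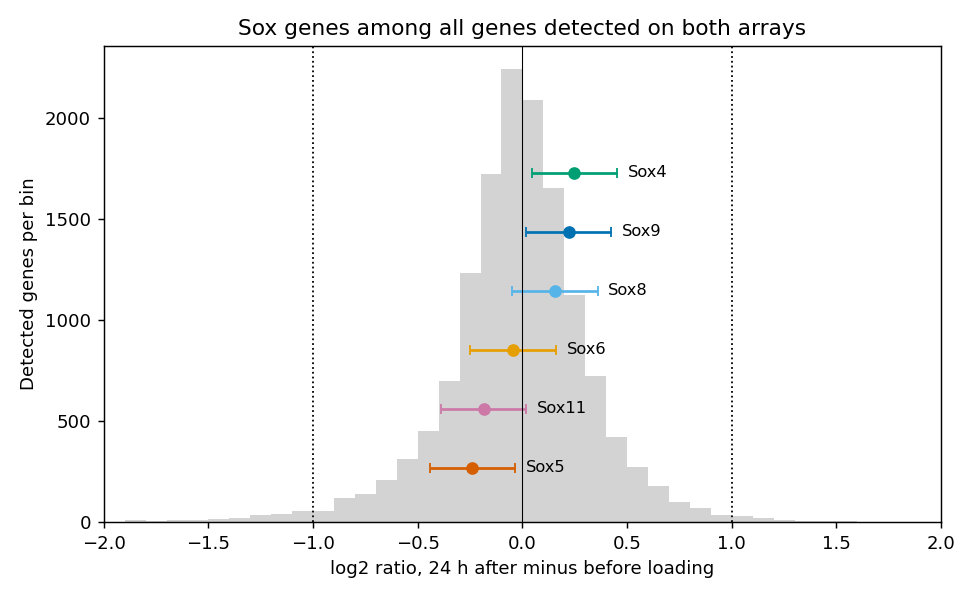
Histogram of the log2 ratio (24 h after minus before loading) of the 14231 detected genes, drawn from -2 to 2, with the 6 Sox genes as points placed at arbitrary heights and bars of 1 within-array error. Dotted lines mark 2-fold. All 6 lie well inside the 2-fold lines, from Sox5 at -0.24 to Sox4 at 0.25. Sox5, Sox9 and Sox4 lie outside the quartiles of all detected genes, -0.195 and 0.163.

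**Figure D4:**
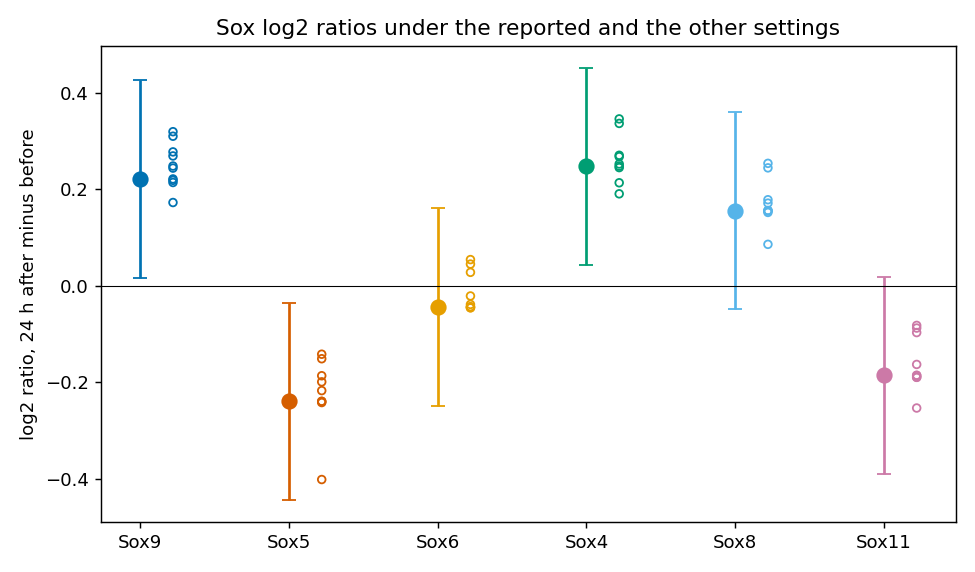
Log2 ratio of each Sox gene as reported (filled point, bar of 1 within-array error) and under each other setting (open circles), 10 for Sox9 and 9 for the rest. Sox9, Sox4 and Sox8 stay above 0 and Sox5 and Sox11 below 0, whereas Sox6 lies on both sides.

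The rest of the family held 14 genes with a probe, and 6 of these were detected. Sox7, which is known from endothelial development, had the largest difference of them. Its intensity was 124 before loading and 68.8 at 24 h (log2 ratio -0.85, within-array error 0.22), 1.81-fold lower, and with normexp correction this came to -0.53. Among 8 endothelial markers, 4 were detected, with log2 ratios between -0.48 and 0.23 and a summed intensity of 14589 before loading and 13937 at 24 h. Cdh5, Tie1, Tek and Emcn were not above background in the software's call on either array, and of the detected ones Vwf (log2 ratio -0.48), Egfl7 (-0.24) and Kdr (-0.05) lay below 0 and Pecam1 (0.23) above it. Kdr, the brightest, had 12774 before loading and 12375 at 24 h and made up most of the sum. The part of endothelial cells in the Sox7 value was not tested, and in these bulk samples fewer cells of a type and less RNA per cell cannot be told apart.

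Sox1 (-0.25 on the brighter probe and 0.14 on the other) and Sox21 (-0.13), both known from neural progenitors, were dim and close to their errors of about 0.21. With normexp correction the other Sox1 probe was the brighter and stood for the gene, at 0.01. Sox17, an endoderm and endothelial gene, and Sry, the testis-determining gene, were well above background before loading only. Their intensities before loading were 25.2 (software error 4.62) and 30.2 (software error 4.92). Set against the lowest intensity well above background at 24 h, 17.8, these values were 1.42-fold higher for Sox17 and 1.70-fold for Sry. That is no lower bound of their difference, because a spot above 17.8 can fail, as Sox14 did with 19.7. The software errors are left out of these folds. The second probe of Sox17 had 4.54 before loading and 4.65 at 24 h and was not above background on either array. Sox2, Sox3, Sox14, Sox15, Sox18 and Sox30 were not above background on either array. Schwann cells are a known site of Sox10. Of 8 markers listed for them 4 were detected, with a summed intensity of 23654 before loading and 24325 at 24 h. Foxd3 and Pmp2 were not above background on either array. Erbb3 and Cdh19 were above it at 24 h only. Erbb3 had 33.0 at 24 h, 1.91-fold above the lowest intensity well above background before loading, 17.3, which is no lower bound either. Cdh19 had 24.1 before loading, not well above background, and 54.7 at 24 h, a measured ratio of 2.28-fold. The part of glial cells in the Sox10 value was not tested.

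The label of the cells was checked against markers. All 8 chondrocyte markers were detected, with log2 ratios between -0.22 and 0.56 and a summed intensity of 1115340 before loading and 1154100 at 24 h. All 8 fibroblast markers were detected as well, between -0.87 and 0.43, and Col1a1, the main collagen of fibroblasts and bone, had 34458 before loading and 33493 at 24 h. The fibroblast sum was 505438 before loading and 469257 at 24 h. Of 7 macrophage markers with a probe all 7 were detected, with log2 ratios between -0.15 and 1.14 and sums of 29745 and 28833, and Ptprc, the highest ratio, at a dim probe, had 20.9 before loading and 46.1 at 24 h. Of 8 muscle markers 5 were detected, with log2 ratios between -0.78 and 0.64 and sums of 1886 and 1563. They went both ways, since Myh3 had 217 and 339, Tnnt3 585 and 339, and Acta1 1001 and 806. All 10 mitotic markers were more than 2-fold lower at 24 h, with a median log2 ratio of -2.26 and sums of 33728 and 7903, and Mki67 had 4521 and 1556. The part of these cells or of proliferation in the Sox values was not tested.

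Cartilage genes that SOX9 is known to activate together with SOX5 and SOX6 were described by a list of 24, and all 24 were detected. Of them 15 had a log2 ratio above 0 and 9 below it, and 0 were past 2-fold in either direction. Past 1.5-fold were 0 that were higher and 2 that were lower, beside 3.65% and 5.84% of all detected genes. The median was 0.08, beside -0.01 over all detected genes, of which 47.6% were above 0. By more than 1 within-array error, 8 of the 24 were higher and 5 lower, beside 20.1% and 22.7% of all detected genes. The highest log2 ratio of the list was 0.56, short of 1.5-fold. The 2 genes past 1.5-fold were Chad, which encodes the cell-binding matrix protein chondroadherin, and Col11a1, a fibril collagen gene that is also made outside cartilage. The intensity of Chad was 614 before loading and 338 at 24 h (log2 ratio -0.86, within-array error 0.20). That of Col11a1 was 107657 before loading and 60799 at 24 h (log2 ratio -0.82, within-array error 0.20).

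Of the best known targets of the trio, neither Col2a1 nor Acan was past 1.5-fold. Col2a1, the main collagen of cartilage, had a log2 ratio of -0.07 (within-array error 0.20) and turned positive under 4 of the 9 other settings. Acan, which encodes the large cartilage proteoglycan aggrecan, had 71350 before loading and 89998 at 24 h (log2 ratio 0.34, within-array error 0.20), and it was positive under all 9. Sox9 and Acan therefore lay on the same side of 0 and Col2a1 near it. With quantile normalization the median of the list came to 0.23 and with loess to 0.19.

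**Figure D5:**
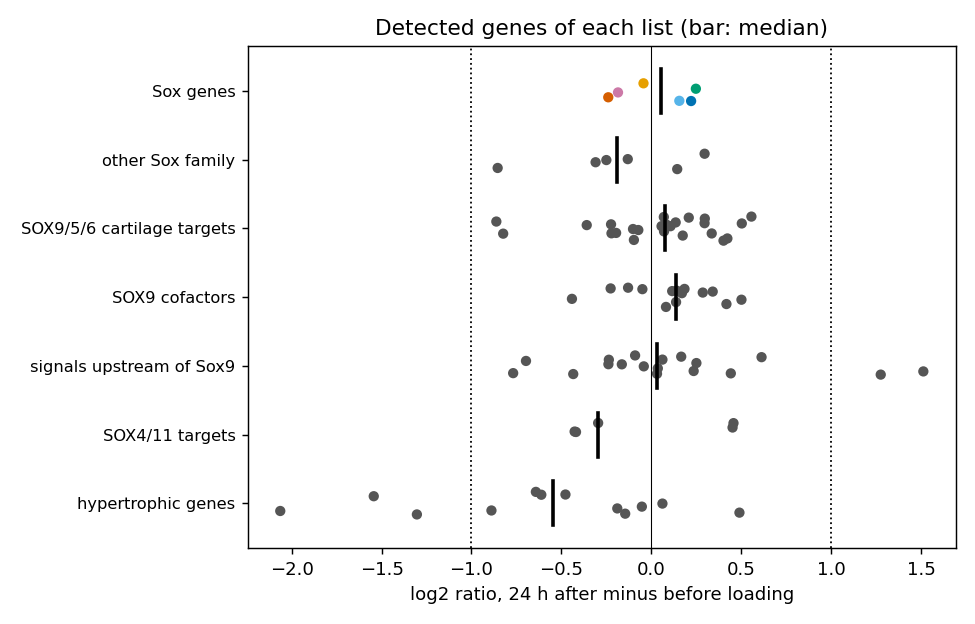
Log2 ratio (24 h after minus before loading) of each detected gene, 1 point per gene, in the Sox genes (coloured), the rest of the family and 5 lists of related genes, with the median of each as a black bar and 2-fold as dotted lines. Vertical scatter within a row carries no meaning. The Sox genes and the cartilage targets centre near 0, and the hypertrophic genes reach furthest to the left.

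Cofactors and modifiers of SOX9, such as the acetyltransferases Ep300 and Crebbp and the mediator subunits Med12 and Med25, were listed as 15 genes. Of these 14 were detected, 10 of them above 0 and 4 below, with a median log2 ratio of 0.14 and a range from -0.44 to 0.50, and 0 were past 1.5-fold. Arid5b was not above background on either array. Of 5 genes described as targets of SOX4 and SOX11, all 5 were detected, 2 above 0 and 3 below, between -0.43 and 0.46, and 0 were past 1.5-fold. Their median of -0.30 came to -0.071 with normexp correction and to -0.17 with quantile normalization.

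Some of the signals that act on Sox9 in chondrocytes differed more between the arrays than Sox9 itself, as did 41.8% of all detected genes. Of 20 listed ligands, receptors, antagonists and nuclear mediators 18 were detected, 10 above 0 and 8 below, with a median log2 ratio of 0.03. Past 1.5-fold were 3 that were higher and 2 that were lower, beside 3.65% and 5.84% of all detected genes. Grem1, which encodes the BMP antagonist gremlin-1, had 2850 before loading and 8125 at 24 h (log2 ratio 1.51, within-array error 0.20). Bmp4, a ligand that raises Sox9 in chondrocytes, had 786 before loading and 1901 at 24 h (log2 ratio 1.28, within-array error 0.20), while its second probe was not above background on either array. These are the 2 genes of the list that were more than 2-fold higher, beside 0.668% of all detected genes.

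Bmp7, another BMP ligand, went the other way, with 1156 before loading and 713 at 24 h (log2 ratio -0.70, within-array error 0.20). Of the Notch targets, which can repress Sox9, Hey1 had 232 before loading and 354 at 24 h (log2 ratio 0.61, within-array error 0.21). Hes1 was dim, with 45.5 before loading and 26.7 at 24 h, and its log2 ratio of -0.77 (within-array error 0.36) came to -0.35 with normexp correction. Il1b and Tnf, cytokine genes whose products lower Sox9, were not above background on either array.

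Genes of the hypertrophic step, which SOX9 holds back, were listed as 12, and all 12 were detected. Their median log2 ratio was -0.54, with 10 below 0, 6 more than 1.5-fold lower, of which 3 more than 2-fold, and 0 more than 1.5-fold higher, beside 5.84% of all detected genes that were more than 1.5-fold lower. With normexp correction the median came to -0.29. Ibsp, a bone sialoprotein gene, had 259 before loading and 61.9 at 24 h (log2 ratio -2.06, within-array error 0.23), its second probe gave -2.37, and with normexp correction the ratio came to -1.36. Col10a1 had 18910 and 6485 (log2 ratio -1.54, within-array error 0.20). Ihh, the hedgehog ligand of the growth plate, had 586 and 237 (log2 ratio -1.30, within-array error 0.21). These were the 3 past 2-fold. Alpl (-0.89), Sp7 (-0.64) and Phospho1 (-0.61), all of mineralization, were the other 3 past 1.5-fold, and the last was dim and came to -0.16 with normexp correction.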

How the data were processed

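RNA of primary chondrocytes from mice was read on 2 one-colour Agilent SurePrint G3 arrays, 1 for each time point. Deposited were, for each spot, the background-subtracted intensity, its error and its flags from Feature Extraction 10.10.1.1, with no scaling between the arrays, and a table of the same intensities rounded. Both arrays lay on 1 slide.

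After dropping spots that either array marked as outliers, log2 intensities were averaged per probe (55678 probes), and each array's own 75th percentile was subtracted. The error of Sox9 is the mean over its spots. Probes were named by accession without version through a RefSeq table of GRCm38.p6, used for names and promoter windows, and 27235 matched. Intensity depends on the probe, so levels were not compared between genes. A mean spot intensity is not among the columns, so normexp used the median (offset 50). Spike-in scaling used 240 spots.

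The named genes are all members with every probe, the detected rest of the family, genes of 5 lists past 1.5-fold, Col2a1, Acan and a few defining markers, of which some are not reported here. Genes named as not detected, several of the markers and the cofactors named as examples were chosen after their values were seen. The members and the 14 lists were chosen with earlier results of these data known. A total of 10 alternatives were planned and 2 added. The counting of genes past 2-fold was tested on simulated data with changes well past 2-fold. That run covers neither changes near 2-fold nor the spread between cultures. R 4.3.3 (limma 3.58.1) gave the quantile, loess and normexp values. Python 3.11.15 was used otherwise, together with pandas 2.3.3 and numpy 2.4.6.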

Additional observations from a re-analysis of the deposited data

How the results depend on the processing

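No paired analysis was possible because each time point holds 1 array only. Keeping outlier spots and leaving out 1 Sox9 spot were chosen after seeing the data. Under the other settings run, the log2 ratio of Sox9 lay between 0.17 and 0.32, of Sox4 between 0.19 and 0.35, of Sox8 between 0.09 and 0.25, of Sox5 between -0.40 and -0.14, of Sox11 between -0.25 and -0.08 and of Sox6 between -0.05 and 0.05. These moved by less than 1 within-array error, and of the 6 only Sox6 changed sign. Median scaling raised every ratio by 0.098 and spike-in scaling by 0.088. The median of the cartilage targets came to 0.23 with quantile normalization and 0.19 with loess, that of the SOX4 and SOX11 targets to -0.17 with quantile normalization and -0.071 with normexp correction, and that of the hypertrophic genes to -0.29 with normexp correction. Among all genes, 95 were more than 2-fold higher and 260 lower. These were 38 and 117 with normexp correction, and 492 and 983 with no filter on dim probes and 192 and 507 with detection on at least 1 array, both of which add dim probes. The cause of the other differences was not tested. With normexp correction Ibsp came to -1.36, and Hes1, Phospho1 and Sox7 also moved by more than their errors. Sox1 did so too, but there its other probe became the brightest and stood for the gene. What can be read of dim genes is limited by the signal, since no spot under 17.3 on the first array or 17.8 on the second passed as well above background.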
